A study of Sus scrofa with 45 samples.

Results

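The genes described here are the heat shock proteins and molecular chaperones measured in the blood of miniature pigs kept on lipid-rich diets. A probe was taken if its gene name began with HSP, with DNAJ or with CCT and a digit, or if its description held the words heat shock, chaperonin or DnaJ. That gave 52 of the 43603 probes on the array: 13 by name and description, 6 by gene name only and 33 by description only. Of the 52, 44 are close matches to 30 genes and 8 are distant matches to proteins of plants, microbes or invertebrates.

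The study fed male miniature pigs 1 of 3 diets: a control diet, HFCD (high in fat and cholesterol) or HFCSD (high in fat, cholesterol and sucrose). Whole blood was collected in PAXgene tubes after 10, 19 and 27 weeks on each diet, and white blood cells were isolated with the LeukoLock kit at 27 weeks. Each of the 12 groups of sample type, diet and period has 4 arrays, except that 3 arrays stand for HFCSD whole blood at 19 weeks and for the whole blood of either fatty diet at 27 weeks. Values are log2 of the processed 1-colour intensity, and 1 unit is a doubling. The sample labels were set against cell markers. The red cell markers HBA and TFRC, with 1 probe each, were dark in whole blood as well as in white blood cells, apart from HBA on 1 array (HFCSD, 19 weeks, 5.08 on replicate 3), so they do not separate the sample types.

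Chaperones hold unfolded or newly made proteins and help them fold. HSP70 proteins do this in cycles of ATP use, with HSP40 (DnaJ) proteins handing them clients and HSP110 proteins renewing their nucleotide, while HSP90 proteins finish the folding of kinases and receptors, and the barrel-shaped chaperonins enclose a protein while it folds. Many of these genes are switched on by heat shock factor under heat or other stress, and white blood cells respond strongly to such signals.

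Most chaperone probes gave a signal in pig blood. Of the 52 probes, 29 were well above background on all 45 arrays (55.8%, against 27.7% of all probes), 18 on some and 5 on none (9.62%, against 31.2% of all probes). In the HSP90 family 6 of 7 probes were bright on all arrays, in the HSP70 family 3 of 6, in the HSP110 family 1 of 4, in the HSP40 family 9 of 15. All 4 probes of the mitochondrial chaperonin and all 3 member probes of HSBP1, a small protein that binds heat shock factor, were bright throughout. The chaperonin TRiC, which folds actin and tubulin, was bright throughout at 1 of 2 probes, the small heat shock proteins at 1 of 2, and the distant matches at 1 of 8. The collagen chaperone HSP47 was above background on 1 array, and HSPB7, HSPA4L, 1 probe of DNAJA4, the HSP90-like TC291974 and the distant match TC294878 on none. A dim probe of DNAJA2 and the probe of DNAJC4 were above background on 1 array each, a dim probe of DNAJB1 on 4, the distant match TC252715 on 8, and TC251432, TC274861 and TC285320 on 1 each.

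At 27 weeks more chaperones were called higher than lower in white blood cells set against whole blood, and the same held for all probes tested. In control and HFCSD pigs the share of members called higher was near that of all probes. HSP70.2, DNAJC7, HSP90AB1, HSP90B1, HSPA4, DNAJA5 and DNAJC13 were called higher in at least 2 of the diets. So were single probes of HSP90AA1, HSPA5 and DNAJB1. In control pigs 10 of 38 tested members were higher in white blood cells and 3 lower (limma, adjusted p below 0.05), beside 24.4% higher and 20.9% lower of all probes tested. Of the 10, HSP70.2 A_72_P015686, HSPA4 and TC256915 entered the test only by the white blood cell arrays, where they are high. HSP70.2 A_72_P015686 did so in the fatty diets too. In HFCD pigs 12 of 37 were higher and 1 lower, beside 25.5% and 22%. In HFCSD pigs 14 of 38 were higher and 3 lower, beside 37.1% and 21.6%. These counts lean on single arrays: without whole blood replicate 3 the 13 calls in HFCD pigs become 4, without whole blood replicate 1 the 17 in HFCSD pigs become 9, and in control pigs the count stays between 11 and 13. The median change of the tested members was 0.40 in control, 0.63 in HFCD and 0.73 in HFCSD pigs, beside 0.17, 0.19 and 0.42 over all probes tested. These are bulk samples, in which fewer cells of a type and less RNA per cell cannot be told apart. Sample type, extraction kit and scan day cannot be told apart either, since all white blood cell arrays were scanned on a day of their own. Scaling to the 75th percentile in place of quantile normalization moves the median of all probes from 0.17 to 0.30 in control and from 0.19 to 0.38 in HFCD pigs, and that of the members to 0.61 and 0.90; in control pigs the split of calls is then 17 higher and 2 lower. With the normexp background, the median in HFCSD pigs falls from 0.42 to 0.23 over all probes and from 0.73 to 0.41 over the members.

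Some markers of T cells, natural killer cells and monocytes were also higher in white blood cells. Of 10 tested T cell marker probes, 8 were higher in control, 6 in HFCD and 8 in HFCSD pigs, with medians of 0.97, 1.16 and 1.17. In control pigs the mean over 10 T cell probes was 7.21, 7.30, 7.72 and 7.01 on the whole blood arrays and 8.30, 8.28, 8.64 and 7.80 on the white blood cell arrays, with no overlap. Monocyte probes were higher at 5 of 11, 3 of 10 and 4 of 10, and natural killer cell probes at 2 of 3 for each diet. None of the 5 platelet and 4 neutrophil probes passed, nor did the single B cell probe. The platelet mean varied widely among white blood cell arrays: in control pigs it was 13.48, 13.47 and 13.44 on 3 of them, above the 11.72 to 12.21 of whole blood, and 8.37 on replicate 1. The part of these cell types in the chaperone differences was not tested.

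Over the feeding period in whole blood, single chaperones moved in both directions. From 10 to 27 weeks 6 of 33 tested members rose and 3 fell in control pigs, beside 12.2% and 8.52% of all probes. In HFCD pigs 1 of 35 rose and 1 fell, beside 1.71% and 3.9%. In HFCSD pigs 5 of 33 rose and 5 fell, beside 3.66% and 6.68%. With the replicate number as a block DNAJC13, TC264261 and HSP90AA1 A_72_P232852 no longer passed there. The counts hang on single arrays. In HFCSD pigs the 10 calls become 1 without replicate 1 of 27 weeks, and over the fits without 1 array the count runs from 1 to 11. In control pigs it runs from 5, without control replicate 4 of 10 weeks, to 12, and in HFCD pigs from 1 to 2. The median change of members was 0.22, 0.25 and 0.08, beside 0.08, 0.01 and -0.05 over all probes tested. With the normexp background the split is 4 higher and 5 lower in control and 2 higher and 4 lower in HFCSD pigs. Feeding period, age and scan day cannot be told apart, because all whole blood arrays of 10 weeks were scanned on 1 day and those of 27 weeks on another. T cell markers fell at 3 of 9 probes in control, 3 of 10 in HFCD and 1 of 9 in HFCSD pigs. The HFCSD call was CD3D A_72_P185936, well above background on 2 of 3 arrays of 27 weeks, and on 3 of 4 in control pigs. In these diets CD3D A_72_P185936 entered the test only by the 10-week arrays, where it is high. The natural killer cell marker KLRK1 rose in control and HFCD pigs, 1 of 2 and 1 of 3 tested probes of that cell type, and 0 of 3 passed in HFCSD pigs. At limma's unadjusted p below 0.05, monocyte probes were higher at 3 of 7 in control and 3 of 9 in HFCD pigs. In HFCSD pigs 1 of 7 was higher and 1 lower. All 5 platelet probes were below 0 in HFCSD pigs (median -0.94), with 0 past that threshold. In control pigs 4 of the 5 were above 0, and in HFCD pigs 3. The part of these cell types in the changes was not tested.

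For the diets few chaperones passed, and in most of these comparisons few probes of any kind did. At 27 weeks in whole blood 2 of 34 tested members were lower and 0 higher in HFCSD than in control pigs, beside 3.87% lower and 6.78% higher of all probes; at an unadjusted p below 0.05 there were 2 higher and 6 lower, beside 32.2% of all probes in both directions. The 2 calls are lost in several other fits: over those without 1 array the count runs from 0 to 3 and is 0 or 1 in 7 of 10. The median of members was -0.09, beside -0.21 over all probes. For HFCD at 27 weeks limma passed 0 of 35 members, with 0 at the unadjusted threshold, beside 0.0165% and 5.55%. Against each other, HFCSD and HFCD pigs differed at 0 of 35 members, with 3 unadjusted, beside 0.0111% and 12.5%. The methods' t-test at its own threshold, an unadjusted p below 0.05 with a fold of 2, passed 1 member for HFCSD against control, which was lower, beside 12.4% of all probes, 0 for HFCD, beside 1.53%, and 0 between the 2 fatty diets, beside 1.82%. After Benjamini-Hochberg adjustment it passed 0 members in all 3, beside 0.83, 0 and 0%. All 5 platelet marker probes had a log2 change below 0 for HFCSD against control at 27 weeks, 3 of them at the unadjusted threshold (median -1.29). Their mean per array was 11.99, 11.31 and 8.88 with HFCSD and 11.72, 11.81, 12.21 and 12.03 in control pigs, so 2 of the 3 HFCSD arrays lie below all controls. With HFCD all 5 platelet probes were also below control (1 at the unadjusted threshold, median -1.12), and the means of 10.77, 11.16 and 10.59 all lie below the controls. The part of platelets in the chaperone calls was not tested.

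At the earlier periods no member passed limma's adjusted threshold, and none passed the methods' t-test after Benjamini-Hochberg adjustment, beside 0% of all probes. At the t-test's own threshold 0 members passed at 10 weeks, beside 1.72% of all probes for HFCD, 0.136% for HFCSD and 0.597% between the 2. At 19 weeks it passed 2 for HFCD, beside 3.3%, 5 for HFCSD, beside 5.16%, and 0 between them, beside 0.221%; all 7 calls were higher with the diet. By limma at 10 weeks the counts at an unadjusted p below 0.05 were 4 of 34 members for HFCD, beside 10% of all probes (0.0281% adjusted), 3 of 31 for HFCSD, beside 1.73% (0.0123% adjusted), and 3 of 34 for HFCSD against HFCD, beside 4.95% (0% adjusted). At 19 weeks they were 6 of 33 for HFCD, beside 12.5% (0.0181% adjusted), 7 of 35 for HFCSD, beside 11.9% (0.0175% adjusted), and 0 of 34 for HFCSD against HFCD, beside 1.55% (0% adjusted). All 6 and all 7 of these at 19 weeks pointed up, with medians over the tested members of 0.16 and 0.43, beside -0.03 and 0.04 over all probes. Of 9 tested T cell probes, 4 were also higher at the unadjusted threshold with each diet (medians 0.65 and 0.65). The medians for HFCD and HFCSD were -1.72 and -0.48 over 5 platelet probes, -0.71 and -0.78 over 4 neutrophil probes and -0.48 and -0.19 over 7 monocyte probes, with 1 neutrophil and 1 monocyte probe lower at the unadjusted threshold for HFCSD. The part of these cell types was not tested. The 2 comparisons with control share the control arrays, and 3 of the 4 have a scan day that differs from that of the diet arrays. With scan day as a block the medians of the members were 0.14 and 0.42, beside 0.10 and 0.23 over all probes. With the slide as a block they were 0.01 and 0.24, beside 0.00 and 0.06. The slide values at 19 weeks, here and below, rest on the only slide with a control and a diet array. It holds control replicate 1 and HFCD replicate 2. No slide holds a control with an HFCSD array, so the slide values for HFCSD against control run through HFCD.

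For either diet no member of the white blood cell comparisons passed limma's adjusted threshold or the methods' t-test after adjustment, beside 0.0166% of all probes by the t-test for HFCD and 0% for the others. At its own threshold the t-test passed 0 members for HFCD, beside 0.651%, 2 for HFCSD, both lower, beside 1.71%, and 0 between the 2 diets, beside 0.117%. By limma at an unadjusted p below 0.05 there were 5 of 38 for HFCD, beside 4.73% of all probes (0.0276% adjusted), 10 of 39 for HFCSD, beside 11.3% (0.0366% adjusted), and 1 of 38 for HFCSD against HFCD, beside 2.17% (0% adjusted). Of the 10 for HFCSD, 6 were higher and 4 lower.

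Differences between diet effects were tested directly, and limma passed 0 members in each. Between white blood cells and whole blood the HFCD effect differed at 0 of 38 members unadjusted, beside 1.33% of all probes (0% adjusted), and the HFCSD effect at 7 of 39, beside 19.2% (1.38% adjusted). Between 27 and 10 weeks the HFCD effect differed at 0 of 35, beside 2.72% (0% adjusted), and the HFCSD effect at 4 of 34, all lower, beside 14.9% (0% adjusted).

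HSP90AB1, the constant cytosolic HSP90, fell over the feeding period in every diet. In control whole blood it read 11.97, 12.01, 11.86 and 11.96 by week 10, then 10.74, 11.23, 10.44 and 10.17 by week 19, then 9.66, 10.495, 10.74 and 9.42 by week 27. Every array of 10 weeks is above every later one, while the later periods overlap. The log2 change from 10 to 27 weeks was -1.87 (standard error 0.28, limma adjusted p = 5.35e-05). In HFCD pigs it went from 12.21, 11.93, 12.18 and 12.28 to 10.93, 10.33 and 10.48 (log2 change -1.57, standard error 0.30, adjusted p = 0.00295). In HFCSD pigs it went from 12.27, 11.90, 12.26 and 12.09 to 10.92, 11.07 and 11.12 (-1.10, standard error 0.30, adjusted p = 0.0194). The periods do not overlap for any diet. HSP90AB1 in white blood cells of control pigs read 11.01, 11.002, 11.18 and 11.25, above all 4 whole blood arrays of the same period (log2 difference 1.03, standard error 0.24, adjusted p = 0.00166). In HFCD pigs the difference was 0.78 (standard error 0.26, adjusted p = 0.0184), and in HFCSD pigs 0.51 (adjusted p = 0.0966).

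HSP90AA1, the stress-inducible cytosolic HSP90, has 4 probes that split into pairs. Probe A_72_P325738 read 10.82, 10.93, 10.53 and 10.89 in control whole blood at 10 weeks and 9.67, 9.78, 10.89 and 8.75 at 27 weeks. There replicate 3 reaches the earlier level and the other 3 lie below it (log2 change -1.02, adjusted p = 0.0268). The probe did not pass in HFCD (-0.87, limma adjusted p = 0.148) or HFCSD pigs (-0.95, adjusted p = 0.0813), though there the periods do not overlap. Probe A_72_P174931 of the same gene read 10.23, 10.71, 9.90 and 10.17 at 10 weeks and 10.79, 11.01, 11.61 and 10.00 at 27 weeks, where 3 of 4 arrays are higher than all of 10 weeks. It is not among the probes that passed. Over the 12 group means, the likeness of A_72_P325738 was r = 0.928 with A_72_P232852 and 0.883 with HSP90AB1, and that of A_72_P174931 with A_72_P207327 was 0.927, while across the pairs r ran from -0.14 to 0.17 (n = 12 group means, which share their normalization; a description only). Over the feeding period A_72_P232852 fell in HFCSD pigs with no overlap (log2 change -0.88, limma adjusted p = 0.046), a call lost with the replicate number as a block. It did not pass in control (-0.65) or HFCD pigs (-0.775), though in HFCD pigs the periods do not overlap either. The pair of A_72_P325738 and A_72_P232852 also held the HSP90AA1 calls against whole blood: A_72_P232852 was higher in white blood cells by 0.80 in control, 0.76 in HFCD and 0.73 in HFCSD pigs. The sequences of 3 of the 4 probes are shown because probes annotated to 1 gene gave 2 patterns; they are printed in lower case as on the array, with no part singled out by capitals, and hold 38.3, 45 and 45% G and C.
HSP90AA1 A_72_P174931: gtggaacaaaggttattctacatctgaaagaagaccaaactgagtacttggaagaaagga
HSP90AA1 A_72_P207327: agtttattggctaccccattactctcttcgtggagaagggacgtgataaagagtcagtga
HSP90AA1 A_72_P325738: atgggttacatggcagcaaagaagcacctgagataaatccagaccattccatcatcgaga

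At 19 weeks the control arrays of HSP90AA1 were spread widely. Probe A_72_P174931 read 11.11, 10.09, 9.88 and 9.48 in control pigs, 11.29, 11.23, 11.36 and 11.10 with HFCD, and 11.50, 11.35 and 11.04 with HFCSD. Control replicate 1, the only control array scanned on the day of the diet arrays, lies within both diet groups, and the other 3 controls lie below all diet arrays. The log2 change was 1.11 for HFCD (adjusted p = 0.207) and 1.16 for HFCSD (adjusted p = 0.275). With scan day as a block the values were 0.14 and 0.19, and with the slide as a block 0.12 and 0.17. The scan day values rest on the 1 control array that shares a scan day with the diet arrays. The slide values rest on the same control array and the HFCD array on its slide. Among the controls scan day, slide and pig cannot be told apart.

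HSP90B1, the HSP90 of the endoplasmic reticulum, stood higher in white blood cells of diet-fed pigs. With HFCSD it read 12.21, 12.70, 12.77 and 12.24 in white blood cells and 10.88, 11.75 and 11.54 in whole blood, with no overlap (log2 difference 1.09, standard error 0.23, adjusted p = 0.000543). With HFCD it read 12.98, 13.03, 12.66 and 12.54 in white blood cells and 12.51, 11.78 and 12.32 in whole blood, again without overlap (0.60, adjusted p = 0.038). In control pigs the difference was 0.24 (adjusted p = 0.367). The change in the HFCSD effect between the sample types was 0.85 and did not pass adjustment.

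HSP70.2, an inducible cytosolic HSP70, was higher in white blood cells than in whole blood of control and HFCD pigs. Probe A_72_P088236, bright on all arrays, read 9.08, 10.10, 9.76 and 10.07 in white blood cells of control pigs and 8.25, 8.29, 9.17 and 8.02 in whole blood at 27 weeks. Only whole blood replicate 3 reaches the lowest white blood cell array (log2 difference 1.32, standard error 0.32, adjusted p = 0.00249). In HFCD pigs the arrays read 9.53, 8.95, 8.37 and 9.23 against 8.12, 7.99 and 8.12 (0.94, adjusted p = 0.0311), and in HFCSD pigs 9.02, 9.16, 8.35 and 7.99 against 7.83, 8.38 and 7.50 (0.73, adjusted p = 0.0783). The HFCD groups stand apart and the HFCSD groups overlap.

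The other HSP70.2 probe, A_72_P015686, was dark on every whole blood array of 27 weeks. In white blood cells it read 5.05, 6.02, 5.93 and 6.18 in control, 5.32, 4.32, 4.53 and 5.21 in HFCD, and 4.38, 5.34, 3.78 and 3.94 in HFCSD pigs. All these arrays lie above the whole blood arrays of their diet, and the control values are the highest on average. Where a probe was dark on all arrays of a group, the lowest intensity still well above background on each array stands in for the dark value, which gives a lower bound. By that bound the white blood cell level was at least 4.96-fold that of whole blood in control (adjusted p = 4.65e-07), at least 2.58-fold in HFCD (adjusted p = 1.48e-05) and at least 1.05-fold in HFCSD pigs (adjusted p = 4.36e-05). The probe entered the test by its white blood cell arrays, and these p values belong to the fit on the measured intensities, dark ones included, not to the bound. With the normexp background the log2 differences were 0.91, 0.55 and 0.43, smaller than the bound in control and HFCD pigs, so the size of the difference depends on the background method. For HFCSD against control in white blood cells the 2 probes differed by -1.44 (adjusted p = 0.281) and -1.12 (adjusted p = 0.303). Both probe sequences are shown because 1 gene gave a bright and a dim signal; they are in lower case as on the array, with no capitals, and hold 60 and 55% G and C.
HSP70.2 A_72_P015686: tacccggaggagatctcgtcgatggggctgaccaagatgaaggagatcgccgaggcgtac
HSP70.2 A_72_P088236: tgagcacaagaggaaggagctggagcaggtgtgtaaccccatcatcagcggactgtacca

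HSP70.2 also fell over the feeding period in HFCSD pigs. In their whole blood probe A_72_P088236 read 9.33, 9.99, 9.22 and 9.75 by week 10, then 8.58, 8.03 and 7.73 by week 19, then 7.83, 8.38 and 7.50 by week 27. All 10-week arrays are above all later arrays (log2 change from 10 to 27 weeks -1.66, standard error 0.34, adjusted p = 0.00306). In control pigs it read 9.12, 9.37, 8.36 and 9.11 at 10 weeks and 8.25, 8.29, 9.17 and 8.02 at 27 weeks, with overlap (-0.55, adjusted p = 0.207). In HFCD pigs all arrays of 27 weeks also lie below all of 10 weeks, with a change of -0.77 that did not pass (adjusted p = 0.195). The HFCSD effect at 27 weeks minus that at 10 weeks was -1.11 and did not pass adjustment.

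The probe named HSP70, A_72_P176131, was 1 of the 2 members lower with HFCSD in whole blood at 27 weeks. It read 7.33, 6.86 and 7.28 with HFCSD, 8.75, 7.76, 8.38 and 7.91 in control pigs, and 7.52, 8.35 and 7.97 with HFCD. All HFCSD arrays lie below all control and HFCD arrays (log2 change against control -1.04, standard error 0.30, adjusted p = 0.0492; -0.65 with the normexp background). The call is close to the threshold and held in 4 of 11 other settings and 3 of 10 fits without 1 array. In white blood cells it read 8.26, 8.29, 7.72 and 7.66 with HFCSD and 8.77, 8.73, 8.88 and 8.56 in control pigs, where the groups do not overlap, with a log2 change of -0.76 that did not pass (adjusted p = 0.281).

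HSPA5, the HSP70 of the endoplasmic reticulum and a main target of the unfolded protein response, rose over the feeding period at its bright probe in control and HFCSD pigs. Probe A_72_P205757 read 9.18, 8.35, 8.80 and 8.43 in control whole blood by week 10, then 9.30, 10.10, 9.68 and 9.86 by week 19, then 9.99, 9.42, 10.87 and 10.02 by week 27. All later arrays exceed all of 10 weeks (log2 change from 10 to 27 weeks 1.38, standard error 0.29, adjusted p = 0.00138). In HFCSD pigs it went from 8.11, 8.51, 8.89 and 8.74 to 9.32, 9.69 and 9.73, again with no overlap (1.02, standard error 0.31, adjusted p = 0.0354). The HFCD change was 0.90 (adjusted p = 0.0854). The dimmer probe A_72_P416982 did not pass over the period in HFCD (0.00, adjusted p = 1) or HFCSD pigs (0.84, adjusted p = 0.216, above background on 2 of 4 arrays at 10 weeks) and was not tested in control pigs. In white blood cells of HFCSD pigs this probe read 5.98, 5.49, 5.80 and 6.02, above the 5.03, 5.10 and 4.56 of whole blood (0.93, adjusted p = 0.04). HFCD pigs gave 5.66, 6.18, 5.59 and 5.56, also above the 5.17, 4.39 and 4.86 of whole blood (0.94, adjusted p = 0.0447), and in control pigs the difference was 0.57 (adjusted p = 0.188). The bright probe did not pass between the sample types, at -0.51 in control (adjusted p = 0.0856), 0.16 in HFCD (adjusted p = 0.632) and 0.45 in HFCSD pigs (adjusted p = 0.14). HSPA1L, a testis-rich HSP70, was above background on 36 arrays and passed in no comparison.

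The HSP110 proteins HSPA4 and HSPH1, which renew the nucleotide on HSP70, were mostly dim. HSPA4 read 4.42, 4.37, 5.16 and 4.25 in white blood cells of control pigs and 3.48, 3.77, 3.75 and 1.55 in whole blood (log2 difference 1.42, adjusted p = 0.0283; 0.27 with the normexp background). Only 3 of the 4 whole blood arrays are well above background, so it entered the test only by white blood cells, and without replicate 4 the difference is 0.89 and does not pass (adjusted p = 0.133). It read 5.24, 4.56, 4.70 and 5.01 in white blood cells of HFCSD pigs and was dark on all 3 whole blood arrays, a level at least 1.5-fold higher (adjusted p = 0.00815, and 0.0978 without whole blood replicate 1). It entered that test by its white blood cell arrays, and these p values belong to the fit on measured intensities, dark ones included, not to the bound. In both diets the white blood cell arrays lie above all whole blood arrays. HSPH1 probe A_72_P050661 at 19 weeks read 5.55, 6.002 and 5.65 with HFCSD and 4.46, 3.73, 3.71 and 4.31 in control pigs, where it was dark on 2 of 4 arrays. The groups stand apart, with a log2 change of 1.68 that did not pass (adjusted p = 0.218), and 1.27 with scan day and 0.61 with the slide as a block. The bright HSPH1 probe A_72_P035611 passed in no comparison.

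DNAJC7, an HSP40 that binds both HSP70 and HSP90, differed between the sample types in every diet. In white blood cells it read 11.17, 11.81, 11.83 and 12.20 in control, 11.80, 11.27, 11.72 and 12.24 in HFCD, and 11.90, 11.85, 11.53 and 11.54 in HFCSD pigs. In whole blood at 27 weeks it read 10.34, 10.26, 11.05 and 10.44 in control, 10.37, 9.90 and 9.87 in HFCD, and 9.42, 9.72 and 9.75 in HFCSD pigs. The sample types do not overlap for any diet, and the HFCSD whole blood arrays lie below all others. The log2 difference was 1.23 in control (standard error 0.24, adjusted p = 0.000415), 1.71 in HFCD (adjusted p = 4.21e-05) and 2.07 in HFCSD pigs (standard error 0.26, adjusted p = 3.79e-06). DNAJC7 is the other member lower with HFCSD than with control in whole blood at 27 weeks (log2 change -0.89, standard error 0.25, adjusted p = 0.0458), a call that held in 6 of 11 other settings and 2 of 10 fits without 1 array. It also fell from 10 to 27 weeks in HFCSD pigs, from 10.505, 10.63, 10.498 and 10.48, all above the later arrays (-0.90, adjusted p = 0.0179).

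DNAJB6, an HSP40 that keeps proteins from clumping, read 9.09, 9.91, 9.89 and 9.47 in white blood cells of control pigs and 7.99, 7.86, 8.79 and 8.51 in whole blood, with no overlap (log2 difference 1.30, standard error 0.24, adjusted p = 0.00025). In HFCD and HFCSD pigs the differences of 0.63 (adjusted p = 0.055) and 0.13 (adjusted p = 0.684) did not pass. The HFCSD effect on DNAJB6 was lower in white blood cells than in whole blood by -1.17, which did not pass (adjusted p = 0.0901). At 19 weeks DNAJB6 read 8.57, 8.08, 7.21 and 7.11 in control, 9.46, 9.24, 9.13 and 9.45 in HFCD, and 9.01, 8.72 and 9.27 in HFCSD pigs. All controls lie below all diet arrays, with replicate 1, scanned on the day of the diet arrays, the nearest. The log2 change was 1.57 for HFCD (adjusted p = 0.118) and 1.26 for HFCSD (adjusted p = 0.264), with scan day as a block 0.75 and 0.43, and with the slide as a block 0.67 and 0.32.

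DNAJB1, the stress-inducible partner of HSP70, has 2 probes bright on all arrays. Probe A_72_P304279 read 9.55, 9.35, 8.71 and 9.15 in control whole blood at 10 weeks and 10.35, 10.12, 10.13 and 9.90 at 27 weeks, where every later array is higher (log2 change 0.94, adjusted p = 0.0127). The change did not pass in HFCD (0.44, adjusted p = 0.405) or HFCSD pigs (-0.05, adjusted p = 0.936). With HFCSD it read 10.06, 10.06, 10.06 and 10.28 in white blood cells and 8.69, 9.71 and 9.37 in whole blood, with no overlap (0.86, adjusted p = 0.00547). With HFCD the difference between the sample types was 0.71 (adjusted p = 0.0211), and in control pigs 0.41 (adjusted p = 0.146). The brighter probe A_72_P203192 stayed between 10.66 and 11.69 on all arrays and passed in no comparison, though its group means had a likeness of r = 0.897 with the first (n = 12).

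DNAJB12, an HSP40 of the endoplasmic reticulum membrane, rose over the feeding period, in HFCD pigs by a call near the threshold. In control whole blood it read 9.39, 9.23, 9.10 and 8.83 at 10 weeks and 10.15, 10.69, 10.06 and 9.67 at 27 weeks, with no overlap (log2 change 1.01, adjusted p = 0.000595). The change was 0.77 in HFCSD (adjusted p = 0.0182) and 0.71 in HFCD pigs (adjusted p = 0.0396), where the call held in 4 of 10 other settings and 27 of 33 fits without 1 array. White blood cells of control pigs gave 9.002, 9.29, 9.497 and 9.74, where only the highest array reaches the lowest of whole blood (log2 difference -0.76, adjusted p = 0.0268; -0.47 with 75th percentile scaling, adjusted p = 0.163).

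Other HSP40 members followed in part. DNAJC5, which guards secretory vesicles, read 7.50, 6.87 and 7.15 in whole blood of HFCSD pigs at 27 weeks and 5.02, 6.09, 6.11 and 5.65 in white blood cells, with no overlap (log2 difference -1.45, adjusted p = 0.00315), and fell by 0.94 from 10 to 27 weeks in control pigs (adjusted p = 0.0386). It did not pass between the sample types in control (-0.29) or HFCD pigs (-0.34), nor over the period in HFCD (-0.66) or HFCSD pigs (-0.06). DNAJA5 rose by 0.81 in control and 0.86 in HFCSD whole blood over the period and was higher in white blood cells by 0.99 in HFCD and 0.86 in HFCSD pigs. DNAJC13, which acts at endosomes, rose by 0.94 in control and 0.93 in HFCSD pigs (0.30 and 0.25 with the normexp background), where it was well above background on 1 of 4 and 3 of 4 arrays at 10 weeks (0.90 in HFCSD pigs with the replicate number as a block, adjusted p = 0.0602). It entered both tests only by the 27-week arrays, where it is high, and neither call held with the normexp background. DNAJC13 was also higher in white blood cells by 0.90 in HFCD and 0.92 in HFCSD pigs. DNAJA4 was higher in white blood cells of HFCSD pigs by 1.11 (adjusted p = 0.00394), and in HFCD pigs DNAJA2 was higher by 0.65 and DNAJC8, a splicing-associated protein, by 0.48. In 19-week whole blood DNAJC8 was 0.59 higher with HFCSD and DNAJA2 0.51 higher with HFCD, both at the unadjusted threshold only. With scan day as a block the values were 0.25 and 0.53, and with the slide as a block -0.30 and 0.20. Under these blocks, in that order, DNAJC13 was higher by 0.93 and 1.15 with HFCD and by 1.07 and 1.36 with HFCSD. HSPA5 A_72_P416982 was higher by 1.93 and 1.26 with HFCSD and was not tested for HFCD against control. None of these blocked values passed adjustment.

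HSPD1 and HSPE1 form the chaperonin of mitochondria and its lid. HSPE1 probe A_72_P137646 read 12.20, 12.72, 12.43 and 12.60 in white blood cells of HFCSD pigs and 11.53, 11.62 and 12.19 in whole blood, where the highest whole blood array lies just below the lowest of white blood cells (log2 difference 0.71, adjusted p = 0.0391). The other HSPE1 probes were higher by 1.08 (adjusted p = 0.00227) and 0.84, so all 3 passed, and the 3 probes had likenesses of r = 0.947 to 0.985 over the 12 group means. None passed in control or HFCD pigs. HSPD1 at 19 weeks read 8.51, 8.47 and 8.70 with HFCSD and 7.97, 6.94, 7.49 and 6.23 in control pigs. All HFCSD arrays are higher, with a log2 change of 1.40 that did not pass (adjusted p = 0.297), and 0.59 with scan day and -0.40 with the slide as a block.

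CCT2, a subunit of TRiC, was lower in white blood cells of control pigs. It read 8.32, 7.84, 7.81 and 8.20 there and 8.81, 9.02, 8.58 and 8.58 in whole blood, with no overlap (log2 difference -0.70, standard error 0.20, adjusted p = 0.00668). In HFCD and HFCSD pigs the differences were -0.42 (adjusted p = 0.113) and -0.10 (adjusted p = 0.695). CCT6B, a subunit with a testis-rich form, was above background on 18 arrays and passed in no comparison. HSPB1, a small heat shock protein that binds unfolding proteins without ATP, read 10.88, 11.56, 12.05 and 12.62 in white blood cells of control pigs and 11.05, 10.81, 10.59 and 9.62 in whole blood. Only the lowest white blood cell array falls within the whole blood range (log2 difference 1.26, standard error 0.39, adjusted p = 0.0129). HSPB1 did not pass in HFCD (0.96, adjusted p = 0.0654) or HFCSD pigs (0.51, adjusted p = 0.308).

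HSBP1 varied widely among white blood cell arrays of the same diet. Probe A_72_P109645 in white blood cells read 9.29, 12.51, 12.90 and 12.15 in control, 11.64, 9.38, 10.62 and 12.09 in HFCD, and 12.15, 11.48, 10.28 and 10.08 in HFCSD pigs. The mean of the 5 platelet probes (PF4, PPBP with 2 probes, ITGA2B and ITGB3) on the same arrays was 8.37, 13.48, 13.47 and 13.44 in control, 12.64, 7.44, 11.54 and 13.06 in HFCD, and 13.19, 12.89, 10.98 and 10.26 in HFCSD pigs. The array lowest in HSBP1 is the lowest in platelet markers for each diet. In whole blood of HFCD pigs at 19 weeks HSBP1 read 9.07, 9.96, 10.45 and 8.45, and the platelet mean 8.67, 11.38, 11.77 and 7.98, in the same order. This pairing was noticed in the values, is given as a description, and the part of platelets in it was not tested.

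At 10 weeks HSBP1 and the platelet markers also stood low together in HFCD pigs. HSBP1 A_72_P109645 read 9.62, 9.30, 9.61 and 9.27 with HFCD, 10.12, 10.12, 9.86 and 10.21 in control and 9.75, 10.56, 9.67 and 10.04 in HFCSD pigs, and the HFCD arrays lie below all others. The log2 change against control was -0.63 (adjusted p = 0.36), and all 5 platelet probes were lower at the unadjusted threshold (median -0.85). The HSBP1 probe A_72_P304084 had a course of its own and rose from 10 to 27 weeks by 0.66 in control (adjusted p = 0.0135) and 0.71 in HFCSD pigs (adjusted p = 0.0258; 0.21 and 0.23 with the normexp background, where neither passed), while the likeness of the other 2 member probes was r = 0.996 (n = 12).

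Among the distant matches TC264261 was lower in white blood cells by -1.50 in control, -1.57 in HFCD and -1.02 in HFCSD pigs, and fell by 0.79 from 10 to 27 weeks in HFCSD pigs (by 0.72 with the replicate number as a block, adjusted p = 0.0779). TC257537 was lower in white blood cells of HFCSD pigs by -2.17, with 3 of 4 of those arrays well above background, and TC256915 higher in those of control pigs by 1.76, with 2 of 4 whole blood arrays well above background. Each entered its test only by the group where it is high, and the values include dark intensities. Which pig genes these 3 probes read is not known from their descriptions.

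Other genes of protein folding and the unfolded protein response came from a list of 52 genes, of which 20 have a probe; 23 of their 26 probes are not among the members. Between white blood cells and whole blood 2 of 13 tested probes were higher and 3 lower in control pigs, beside 24.4% and 20.9% of all probes. In HFCD pigs 3 of 14 were higher and 4 lower, beside 25.5% and 22%. In HFCSD pigs 5 of 13 were higher and 1 lower, beside 37.1% and 21.6%. CHORDC1, a partner of HSP90, was higher by 1.02, 1.28 and 1.91 in control, HFCD and HFCSD pigs, with 1 of 3 HFCSD whole blood arrays well above background, so that it entered the HFCSD test only by its white blood cell arrays. CALR, a lectin chaperone of the endoplasmic reticulum, was lower by -0.59, -0.57 and -0.85. FKBP5, an HSP90 partner of steroid receptors, gave 2 opposite probes, at 0.89 and -1.56 in control pigs. Over the feeding period XBP1, a transcription factor of the unfolded protein response, fell by 1.21 in control pigs, where 3 of 4 arrays of 27 weeks are well above background and it entered the test only by those of 10 weeks, and by 0.99 in HFCD pigs. In HFCSD pigs it was dark on all 3 arrays of 27 weeks, a level at least 1.69-fold lower (adjusted p = 0.00166). The probe entered that test by its 10-week arrays, and the p value belongs to the fit on measured intensities, dark ones included, not to the bound. XBP1 was the only probe of the list to fall among 12 tested in control and 14 in HFCD pigs, beside 8.52% and 3.9% of all probes. In HFCSD pigs it was 1 of 2 to fall among 11, beside 6.68%. CHORDC1 rose by 1.02 in control pigs, with 2 of 4 arrays of 10 weeks well above background, and entered that test only by its 27-week arrays. GRPEL2, a mitochondrial partner of HSP70, was dark on all 3 HFCSD arrays of 27 weeks, a level at least 2.05-fold lower than at 10 weeks (adjusted p = 0.031, with the same limits). No probe of the list passed adjustment in limma for any diet comparison. At an unadjusted p below 0.05, 1 of 10 was higher and 1 lower for HFCSD in whole blood at 27 weeks, beside 32.2% of all probes. For HFCD 3 of 11 were higher at 19 weeks, beside 12.5%, and 2 of 14 higher and 1 lower at 10 weeks, beside 10%. Each other diet comparison had at most 1.

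Likeness between members was compared over the 12 group means of the 29 probes bright on all arrays, as a description with no test. The 406 pairs had a median r of 0.295, from -0.905 to 0.996. Among probes of different genes, DNAJC8 and HSPE1 A_72_P239067 reached 0.922, HSP70 and DNAJB1 A_72_P304279 0.904, and HSP90AA1 A_72_P207327 and HSPD1 0.895. The most opposite were DNAJA5 and TC264261 at -0.905 and DNAJA5 and DNAJC5 at -0.899.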

How the data were processed

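The authors deposited scanner files with spot intensities after background subtraction, on a linear scale per the file headers; log2 was taken here. The 45 arrays were quantile normalized together, spots marked as outliers left out and spots of a probe averaged. Per the labels the Feature Extraction version is 9.5.3.1, per the file headers 10.5.1.1. A probe was tested if well above background on every usable array of at least 1 compared group, with at least 2 usable arrays per group. Tests were limma fits of all probes with Benjamini-Hochberg adjustment at 0.05 (R 4.3.3, limma 3.58.1, data.table in version 1.17.8, Python 3.11.15, numpy 2.4.6, pandas 2.3.3, matplotlib 3.10.9). The members and lists were chosen with earlier results of these data known. Genes are named by family, brightness and passing a test. By the paper each diet was fed to 5 pigs that were bled several times, so arrays of different periods or sample types can come from 1 pig; the labels do not say which, and the fits treat all arrays as independent. Deviations of arrays with the same number did not go together in every pair, except for 27 against 10 weeks with HFCSD (r 0.117 to 0.506). There the calls lost with the replicate number as a block are named, with the blocked values for DNAJC13 and TC264261. No 2 arrays were identical. The scripts were tested on simulated data.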

Additional observations from a re-analysis of the deposited data

Results flagged for a closer look

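Each of 26 member probes, and the array median over the members bright on all arrays, was searched in groups of 4 arrays. The search was for 1 array far from the other 3, by the gap to its neighbour as a share of the group's range. Of 221 such groups 11 passed (4.98%), and chance alone flags about 1 in 20 groups. In whole blood at 10 weeks HFCSD replicate 2 stood apart in DNAJC7 (share 0.854, log2 10.63 against 10.48 to 10.505) and in HSPE1 (0.937, 10.99 against 11.45 to 11.48). In control whole blood at 19 weeks replicate 3 stood apart in HSP90AA1 A_72_P232852 (0.909), replicate 4 in HSPE1 (0.969) and replicate 2 in CCT2 (0.988). HFCD replicate 1 at 19 weeks was high in HSP90B1 (0.928, 12.96 against 11.49 to 11.60), HSPH1 (0.835, 11.16 against 9.04 to 9.39) and HSPE1 (0.882, 12.93 against 11.73 to 11.87). In control whole blood at 27 weeks replicate 4 was low in DNAJB1 A_72_P203192 (0.863). In white blood cells HFCD replicate 2 was high in HSPA5 A_72_P416982 (0.849), and HFCSD replicate 4 in DNAJB1 A_72_P304279 (0.993, 10.28 against 10.06 to 10.06). The causes were not tested.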

How the results depend on the processing

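Number of arrays, 3 or 4 a group, limits precision; scan day, kit and period go with the groups; and the 52 probes cover 30 named genes unevenly. The counts below are members past the adjusted threshold, and some alternatives (the digit after every prefix, leaving out distant matches, the slide as a fixed block, and all alternatives for the differences of diet effects) were chosen after seeing the data. Except for the t-test in the diet comparisons, counts under other settings are given without the share of all probes called in that setting. A change in such a count is therefore not a result about the members alone. Past the adjusted threshold, direction was checked for the members with the largest rises and falls of each comparison, not for every call. None of those checked changed direction. With the slide as a fixed block some values that had not passed at 19 weeks did, among them HSPD1 and DNAJC8 for HFCSD. Except where fewer members are counted, the cause of a change was not tested.

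For HFCSD against control in whole blood at 27 weeks the 2 members became 0 with a weaker presence flag, with no filter on dim probes, with replicate number as a block (pairing), with the share of bright spots as covariate and with the adjusted t-test; 4 with the slide as a random block; 1 by the unadjusted t-test with a fold of 2; 5 with all 12 groups in 1 fit; and 1 by gene name alone. Leaving out 1 array gave 0 to 3: 0 without control replicate 1, 2 or 3, HFCD replicate 3 or HFCSD replicate 1 or 2, and 1 without HFCSD replicate 3. At 19 weeks the unadjusted t-test with a fold of 2 passed 2 members for HFCD and 5 for HFCSD in place of 0, and 1 fit of all 12 groups passed 2 and 2. For HFCSD in white blood cells the unadjusted t-test passed 2 in place of 0. The HFCSD effect in white blood cells minus whole blood passed 1 in place of 0 with the normexp background and 1 with the slide as a fixed block.

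For white blood cells against whole blood, control pigs gave 8 in place of 13 by the adjusted t-test and 3 by gene name alone, and 11 to 13 without 1 array. HFCD pigs gave 20 in place of 13 with 75th percentile scaling, 7 by the adjusted t-test, 3 by the unadjusted t-test with a fold of 2 and 4 by gene name alone, and 4 to 14 without 1 array: 6 without whole blood replicate 2, 4 without replicate 3 and 7 without white blood cell replicate 1. HFCSD pigs gave 6 in place of 17 with the share of bright spots as covariate, 9 by the unadjusted t-test and 8 by gene name alone, and 9 to 18 without 1 array, 9 without whole blood replicate 1.

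For 27 against 10 weeks, control pigs gave 2 in place of 9 by the adjusted t-test, 3 by the unadjusted t-test and 3 by gene name alone, and 5 to 12 without 1 array, 5 without control replicate 4 of 10 weeks. HFCD pigs gave 1 in place of 2 with a weaker presence flag, with no filter on dim probes, with the replicate block (pairing), with the slide as a random block, by the unadjusted t-test, by gene name alone and with a digit after every prefix, and 1 to 2 without 1 array. HFCSD pigs gave 6 in place of 10 with the normexp background, 6 with no filter on dim probes, 4 with the slide as a random block, 4 by the adjusted and 3 by the unadjusted t-test and 3 by gene name alone, and 1 to 11 without 1 array, while the replicate block (pairing) left 7, without DNAJC13, TC264261 and HSP90AA1 A_72_P232852, and changed no other call: 1 without HFCSD replicate 1 of 27 weeks, 3 without HFCSD replicate 2 of 27 weeks or replicate 4 of 10 weeks. All other counts without 1 array stayed at 0.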
